A study of Mus musculus with 15 samples.

Results

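Positive selection in the thymus is followed here through 12 genes whose RNA signal was high for 1 sorted stage and lower again in the next. The stage, labelled PostDP, holds thymocytes with CD69 and T cell receptor beta on their surface. Signals were read as log2(signal + 16), with 1 probe set for each gene, the one with the highest mean over the 15 arrays. A gene was chosen if its PostDP mean was at least 8 and at least 1.5 above its mean in each of 3 other stages, labelled PreDP, SM&M1 and M2. Symbols starting with Nr4a, Egr, Nab, Fos, Jun, Dusp, Nfkb, Tnfrsf or Ccr were left out by name. Of 18193 genes, 12 were chosen: Mpp4, Trav6-3, Rapsn, Dmwd, Basp1, Tox2, Rab19, Arap2, Ikzf2, Klhl4, Chsy1 and Cldn10. The genes were thus chosen by these 4 stage means, so their height in PostDP is given as a description, without a test.

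Thymocytes that carry both CD4 and CD8, called double-positive cells, die unless their newly made T cell receptor binds a self peptide on an MHC molecule with moderate strength. That signal, passed on through calcium, MAP kinase and NF-κB pathways, raises CD69 and the receptor itself, switches on early response genes, and starts the change into CD4 or CD8 single-positive cells. Single-positive cells then mature further in the medulla, where TAK1, the kinase encoded by Map3k7, passes receptor signals on to NF-κB.

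RNA from sorted thymocytes of young adult C57BL/6 mice was hybridised to Affymetrix expression arrays, with 1 array for each of 3 samples in 5 groups. PreDP (CD69-TCRβ-) and PostDP (CD69+TCRβ+) cells came from B2m-/- mice, which lack the partner chain of MHC class I. SM&M1 (Qa2-CD69+) and the more mature M2 (Qa2+CD69-) cells came from Rag2-GFP BAC transgenic mice, with cells stained for NK1.1, CD25 or GL3 discarded. The fifth group was SM&M1 cells of Tak1f/f CD4Cre mice, in which CD4-driven Cre deletes the floxed gene from the double-positive stage onward. The mouse line changes between PostDP and SM&M1, so stage and line cannot be told apart across that step, nor genotype and line in the Tak1-deficient group. In these bulk samples fewer cells of a type and less RNA per cell cannot be told apart either.

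The array labels were checked on a few genes. Map3k7 had a mean of 10.42 ± 0.03 (SD, n = 3) in SM&M1 and 5.39 ± 0.66 (SD, n = 3) in Tak1-deficient SM&M1. Group means of Cd69 from PreDP through PostDP and SM&M1 to M2 were 9.10, 13.28, 12.50 and 11.54, and those of Cd8a were 13.89, 12.74, 7.79 and 6.52. Median signal per array was 80.5 to 121 in 14 arrays and 168 in Tak1-deficient replicate 2. That array correlated at 0.873 to 0.879 with the others of its group, and all other pairs within a group at 0.965 or more. The summed signal of 13 macrophage marker genes was 491 to 706 in PreDP and 736 to 970 in PostDP. Of the 13, 3 were above the array median in all PostDP arrays and 2 in all PreDP arrays. Csf1r, Cd68, Lyz2 and Fcgr3 were above it in at least 1 PostDP array, Lyz2 and Fcgr3 in no PreDP array. Cd14, Adgre1, C1qa, C1qb, C1qc, Mrc1, Marco, Cd163 and Vsig4 were not above the array median in any PostDP array.

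The DNA in front of the chosen genes was read for sites of factors that act downstream of the T cell receptor, a feature that the choice had not used. RefSeq windows (build GRCm38.p6) from 250 bases before to 50 bases after a start site were found for 9 of the 12 genes, with 15 windows in all, and not for Ikzf2, Rapsn and Trav6-3. The 250 bases before the start are printed 5′ to 3′ on the strand of the gene for 4 of them. Arap2 (chr5:62766178-62766427, minus strand) held the most of the sites looked for. Klhl4 (chrX:114474083-114474332, plus strand) and Cldn10 (chr14:118854700-118854949, plus strand) held an E-box with the letters CAGCTG. Dmwd (chr7:19075950-19076199, plus strand), called in every comparison tested here, held none of the letters looked for. Capitals mark an EGR site (GCGTGGGCG or GCGGGGGCG), an AP-1 site (TGANTCA) or an E-box with the letters CAGCTG, a site of E proteins, on either strand. Other spellings of the E-box were not looked for and are left unmarked.
Arap2: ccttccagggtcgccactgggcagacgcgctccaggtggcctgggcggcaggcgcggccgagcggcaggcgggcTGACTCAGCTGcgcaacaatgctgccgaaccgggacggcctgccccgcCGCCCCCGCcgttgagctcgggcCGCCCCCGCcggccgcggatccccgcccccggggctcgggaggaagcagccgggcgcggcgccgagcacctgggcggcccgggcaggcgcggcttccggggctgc
Klhl4: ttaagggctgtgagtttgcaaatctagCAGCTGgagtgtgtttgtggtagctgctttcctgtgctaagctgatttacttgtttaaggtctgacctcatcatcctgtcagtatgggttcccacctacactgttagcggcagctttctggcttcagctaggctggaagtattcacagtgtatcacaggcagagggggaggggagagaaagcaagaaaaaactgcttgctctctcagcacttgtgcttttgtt
Cldn10: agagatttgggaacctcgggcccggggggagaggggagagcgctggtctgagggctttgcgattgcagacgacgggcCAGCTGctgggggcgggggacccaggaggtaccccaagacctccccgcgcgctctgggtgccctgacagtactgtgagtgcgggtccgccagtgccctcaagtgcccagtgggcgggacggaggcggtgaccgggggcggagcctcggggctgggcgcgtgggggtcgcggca
Dmwd: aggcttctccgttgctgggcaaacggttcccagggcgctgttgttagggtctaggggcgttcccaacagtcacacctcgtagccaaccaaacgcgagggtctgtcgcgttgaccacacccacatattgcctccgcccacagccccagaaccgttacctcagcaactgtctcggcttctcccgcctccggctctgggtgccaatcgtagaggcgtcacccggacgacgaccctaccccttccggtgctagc

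In Arap2 the AP-1 letters and the E-box overlap in 1 run of capitals, TGACTCAGCTG, and the other capitals are a pair of EGR sites on the opposite strand. The letters of that pair are all G and C. The Arap2 window of 300 bases was 81.7% G and C, against a median of 52.7% over all windows. EGR letters were in the windows of 1 of 9 chosen genes and 3.9% of all 27025 genes with a window, and AP-1 letters in 1 of 9 and 9.0%. The E-box letters CAGCTG, the 1 spelling looked for, were in 4 of 9, namely Arap2, Klhl4, Chsy1 and Cldn10, and in 18.3% of all genes. The 9 genes had 15 windows and all 27025 genes had 32851, so the chosen genes had more windows each. Counted by window, the letters CAGCTG were in 4 of 15 and in 16.3% of all windows. The NFAT core GGAAA, left in lower case, was in 5 of 9 (Mpp4, Tox2, Rab19, Klhl4 and Cldn10) and in 64.4% of all genes. Letters of an NR4A site (AAAGGTCA), a CRE (TGACGTCA), an NF-κB site (GGGA and TTCC with any pair of bases between), a RUNX site (TGTGGTT) and a CArG box were in no window of the chosen genes, against 1.7%, 2.0%, 1.6%, 6.1% and 1.8% of all genes. No site was shared by all 9, and a match of letters is a description and not a site shown to be bound.

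Few of the genes that were higher in PostDP were lower again by SM&M1. With the same floor of 8, 211 genes were at least 1.5 higher in PostDP than in PreDP. Of these, 14 were at least 1.5 lower again in SM&M1, and all 14 were also that much lower in M2: they are the 12 genes and the 2 left out by name. Another 31 were down by 1.5 in M2 but not yet in SM&M1, and 77 were as high as in PostDP or higher in both later stages. The mirror image, a dip in PostDP of at least 1.5 below each of the 3 other stages, was met by 59 genes.

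**Figure D1:**
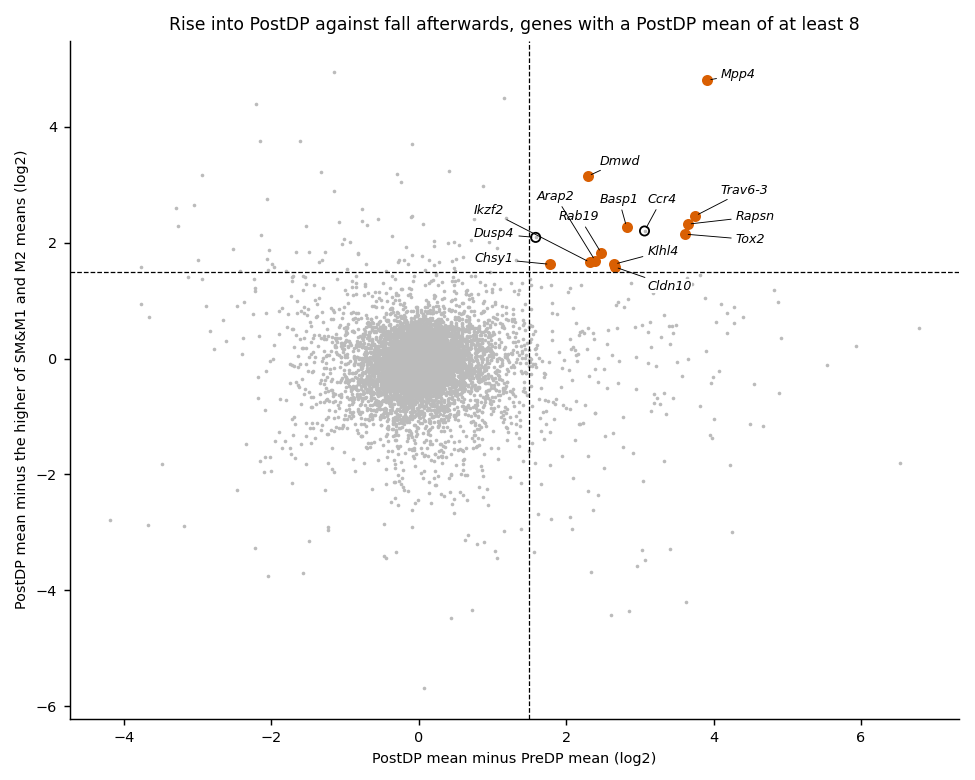
Each point is 1 of the 8247 genes with a PostDP mean of at least 8: the horizontal axis is the PostDP mean minus the PreDP mean and the vertical axis the PostDP mean minus the higher of the SM&M1 and M2 means, both in log2 units. Dashed lines mark 1.5; the 12 chosen genes (filled) and Ccr4 and Dusp4 (open) are the 14 points above and to the right of both, and most of the 211 genes right of the vertical line lie below the horizontal one.

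Across the 12 genes the rise from PreDP to PostDP was 1.79 to 3.92 log2 units, with a median of 2.66. The later fall was 1.62 to 5.02 to SM&M1 (median 2.08) and 1.58 to 5.16 to M2 (median 3.29). The lowest PostDP array lay above the highest array of the 3 other stages in all 12, by 0.89 to 3.37, and above every Tak1-deficient array as well. The choice used the values of the 3 stages, so this gap is a description. The share of all genes with PostDP arrays above every Tak1-deficient array was not counted, so that part is a description too. By SM&M1 the genes had lost 59.5% to 137% of their rise (median 72.3%), and 2 of them, Mpp4 and Dmwd, had lost all of it. By M2 the loss was 59.4% to 225% (median 111%), and in 8 it was complete. In 9 genes the stage closest to PostDP was SM&M1, in Mpp4 and Dmwd it was PreDP, and in Cldn10 it was M2.

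**Figure D2:**
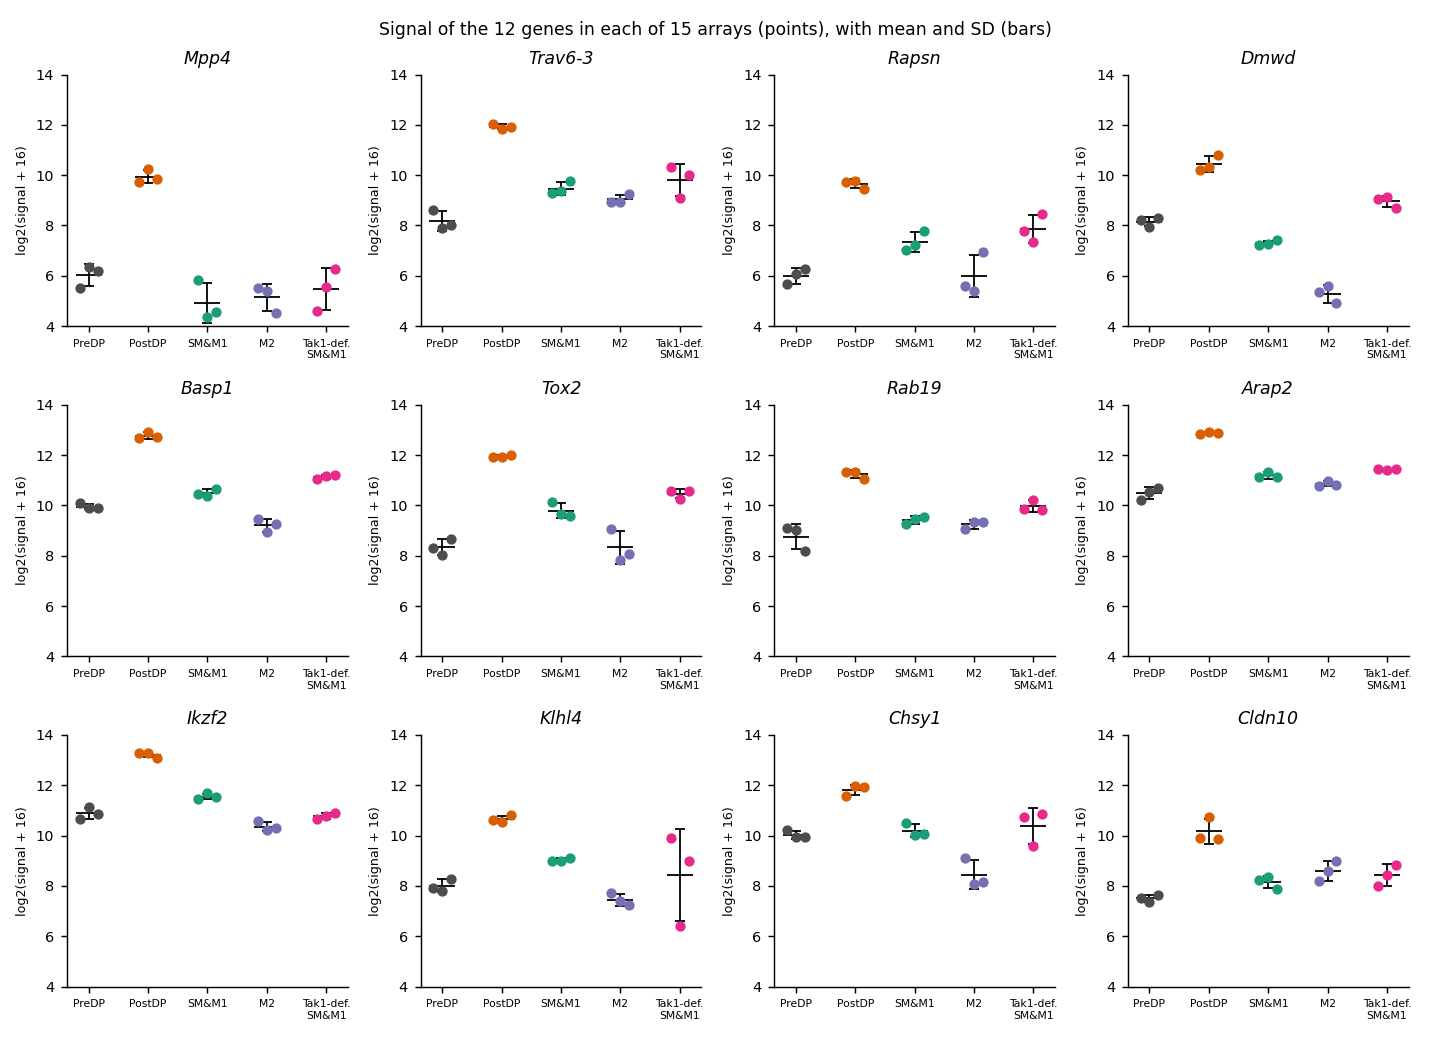
Each panel shows 1 gene, with log2(signal + 16) on the vertical axis and the 5 groups on the horizontal axis; points are single arrays and bars the mean and SD of 3 arrays. All 3 PostDP points stand above all 12 other points in every panel, and the widest spread is in the Tak1-deficient arrays of Klhl4.

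Tox2 and Ikzf2 encode nuclear factors. Tox2 belongs to the HMG-box family of Tox, a factor needed for CD4 T cell development, and Ikzf2 encodes Helios, an Ikaros-family zinc finger protein found in thymocytes under strong receptor signals and in regulatory T cells. Tox2 read 8.30, 8.04 and 8.66 in the PreDP arrays, 11.91, 11.92 and 12.001 in PostDP, 10.13, 9.66 and 9.59 in SM&M1, 9.07, 7.83 and 8.09 in M2 and 10.57, 10.25 and 10.55 in Tak1-deficient SM&M1. The PostDP arrays lay close together, M2 replicate 1 was the highest of its group, and M2 overlapped PreDP. Ikzf2 read 10.67, 11.12 and 10.86 in the PreDP arrays, 13.27, 13.27 and 13.09 in PostDP, 11.45, 11.68 and 11.54 in SM&M1, 10.57, 10.22 and 10.29 in M2 and 10.68, 10.77 and 10.89 in Tak1-deficient SM&M1. For Ikzf2, M2 lay below PreDP in all arrays, and the Tak1-deficient arrays lay below all SM&M1 arrays. Ikzf2 is itself on the list of 7 regulatory T cell markers; the summed signal of the other 6 was 1934 to 2096 in PreDP, 2732 to 3172 in PostDP, 9724 to 15359 in SM&M1, 7367 to 8764 in M2 and 9146 to 10721 in the Tak1-deficient arrays. Their sum was thus highest in SM&M1 where Ikzf2 was highest in PostDP, and of the 6, Foxp3, the factor that defines these cells, was not above the array median in any array outside M2. The part of regulatory T cells in the Ikzf2 values was not tested.

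None of the close relatives measured had a PostDP peak of this size. Tox went from 10.18 in PreDP to 12.88 in PostDP and was 11.90 in SM&M1 and 11.12 in M2, a similar outline with a shallower fall, and Tox3 was 9.57, 8.15, 6.88 and 5.98 over the 4 stages. Ikzf1, which encodes Ikaros, was between 13.15 and 13.75 in these 4 stages. Ikzf3, which encodes Aiolos, was 11.21, 12.01, 10.89 and 10.83 in the same order. Ikzf4, which encodes Eos, took another course and was 6.25, 7.71, 10.33 and 10.47.

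Trav6-3 is a variable segment of the T cell receptor alpha chain, the chain that double-positive cells rearrange. Trav6-3 read 8.62, 7.88 and 8.02 in the PreDP arrays, 12.03, 11.83 and 11.92 in PostDP, 9.28, 9.37 and 9.76 in SM&M1, 8.93, 8.94 and 9.24 in M2 and 10.34, 9.11 and 10.03 in Tak1-deficient SM&M1. PreDP was the lowest group, and SM&M1 and M2 stood above PreDP without overlap, so the fall was partial. The segment has near-identical copies in the mouse genome, so the signal may come from several of them and is uncertain as a measure of this one. Of the other alpha segments looked up, Trav12n-2 was 10.33, 11.55, 10.42 and 10.88 in PreDP, PostDP, SM&M1 and M2, and Trav9d-3 was 13.60, 14.19, 13.96 and 14.10. Trav12n-1 was 8.15, 9.07, 9.07 and 8.78, and Trav13-5 was lowest in PostDP, at 7.68, 6.85, 7.24 and 7.42. None stood 1.5 above all other stages.

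Arap2 and Rab19 act on small GTPases: Arap2 is a GTPase-activating protein for Arf proteins, and Rab19 is a Rab GTPase of membrane traffic. Arap2 read 10.22, 10.54 and 10.68 in the PreDP arrays, 12.84, 12.91 and 12.87 in PostDP, 11.13, 11.34 and 11.11 in SM&M1, 10.77, 10.96 and 10.83 in M2 and 11.46, 11.41 and 11.44 in Tak1-deficient SM&M1. The Arap2 arrays were tight within groups, and M2 lay above PreDP in every array. Rab19 read 9.08, 9.004 and 8.20 in the PreDP arrays, 11.34, 11.31 and 11.06 in PostDP, 9.25, 9.47 and 9.55 in SM&M1, 9.05, 9.34 and 9.35 in M2 and 9.85, 10.23 and 9.81 in Tak1-deficient SM&M1. For Rab19 the SM&M1 arrays lay just above all PreDP arrays, M2 overlapped PreDP, and PreDP replicate 3 was the lowest array of all. The relatives Arap1 and Arap3 had PostDP means of 9.51 and 8.05 and SM&M1 means of 9.35 and 8.59, with no peak of this size.

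Mpp4, Rapsn, Basp1 and Cldn10 encode proteins of membranes and their scaffolds. Mpp4 is a membrane-associated guanylate kinase homologue best known from photoreceptors, Rapsn encodes rapsyn, which clusters acetylcholine receptors at the nerve-muscle synapse, Basp1 is a membrane-bound protein of growing axons, and Cldn10 is a claudin of tight junctions. Mpp4 read 5.53, 6.36 and 6.20 in the PreDP arrays, 9.74, 10.26 and 9.85 in PostDP, 5.84, 4.36 and 4.58 in SM&M1, 5.52, 5.40 and 4.53 in M2 and 4.62, 5.55 and 6.26 in Tak1-deficient SM&M1. The probe set of Mpp4 was above the array median in the 3 PostDP arrays and in no other, so its other levels, and the size of its peak, rest on dim signal and the added 16. Rapsn read 5.66, 6.08 and 6.29 in the PreDP arrays, 9.74, 9.77 and 9.45 in PostDP, 7.01, 7.24 and 7.77 in SM&M1, 5.60, 5.41 and 6.97 in M2 and 7.80, 7.36 and 8.47 in Tak1-deficient SM&M1. Rapsn was above the array median in no PreDP or M2 array, in 2 of 3 SM&M1 arrays and in 2 of 3 Tak1-deficient arrays, and M2 replicate 3 stood apart from the other M2 arrays. Basp1 read 10.08, 9.89 and 9.88 in the PreDP arrays, 12.66, 12.93 and 12.72 in PostDP, 10.45, 10.39 and 10.66 in SM&M1, 9.45, 8.94 and 9.26 in M2 and 11.04, 11.16 and 11.20 in Tak1-deficient SM&M1. Basp1 did not overlap between any 2 of the 5 groups, with M2 lowest. Cldn10 read 7.52, 7.38 and 7.64 in the PreDP arrays, 9.92, 10.74 and 9.86 in PostDP, 8.22, 8.37 and 7.87 in SM&M1, 8.20, 8.60 and 8.97 in M2 and 7.99, 8.43 and 8.85 in Tak1-deficient SM&M1. Cldn10 was carried furthest by 1 array, PostDP replicate 2, and was the sole chosen gene whose mean was higher in M2 than in the other stages outside PostDP.

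Chsy1, a synthase of chondroitin sulfate chains, had the smallest rise. Chsy1 read 10.22, 9.95 and 9.94 in the PreDP arrays, 11.59, 11.96 and 11.92 in PostDP, 10.49, 10.04 and 10.07 in SM&M1, 9.11, 8.07 and 8.17 in M2 and 10.74, 9.57 and 10.87 in Tak1-deficient SM&M1. SM&M1 was back within the PreDP range or just above it, M2 lay below both, and Tak1-deficient replicate 2 was lower than the other arrays of its group. The related genes Chsy3 and Chpf had PostDP means of 4.62 and 7.57 and no peak.

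Dmwd encodes a WD-repeat protein and lies beside the myotonic dystrophy kinase gene Dmpk, and Klhl4 encodes a kelch-like protein. Dmwd read 8.22, 7.94 and 8.28 in the PreDP arrays, 10.21, 10.33 and 10.79 in PostDP, 7.21, 7.28 and 7.40 in SM&M1, 5.34, 5.59 and 4.91 in M2 and 9.05, 9.13 and 8.71 in Tak1-deficient SM&M1. Dmwd was below its PreDP arrays already in SM&M1 and lower still in M2, where no array was above the array median, and all Tak1-deficient arrays lay between the PreDP and PostDP arrays. Klhl4 read 7.93, 7.80 and 8.29 in the PreDP arrays, 10.61, 10.55 and 10.81 in PostDP, 8.998, 8.99 and 9.10 in SM&M1, 7.71, 7.39 and 7.24 in M2 and 9.92, 6.40 and 8.99 in Tak1-deficient SM&M1. In Klhl4 the M2 arrays were below all PreDP arrays, and the Tak1-deficient arrays spanned the range from below M2 to above SM&M1, with replicate 2 lowest.

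**Figure D3:**
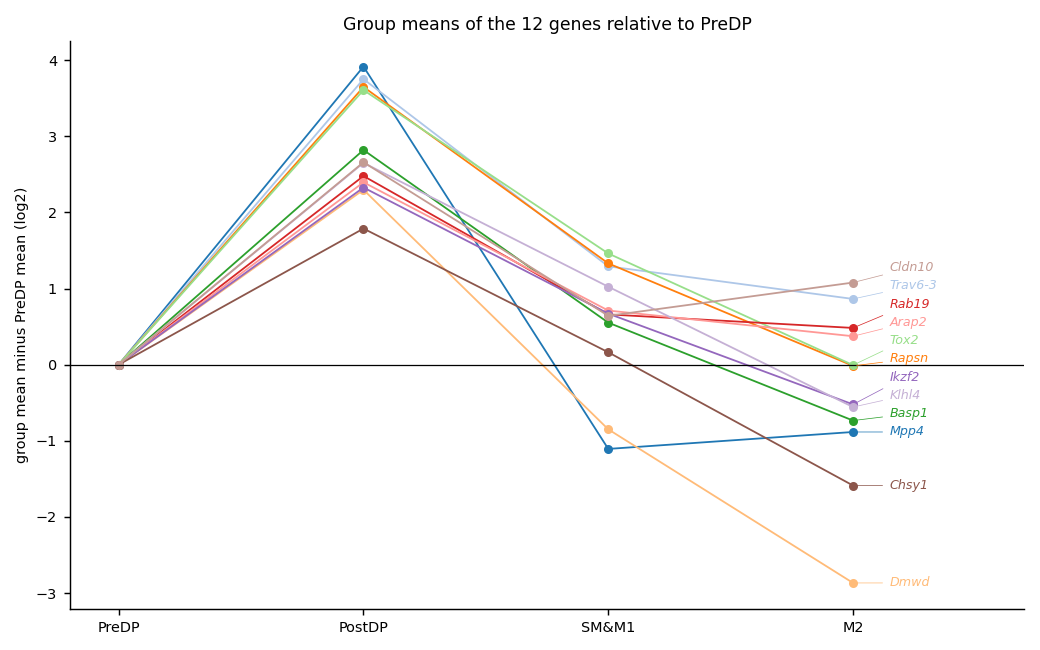
Lines give the mean of each of the 12 genes in PreDP, PostDP, SM&M1 and M2 minus its PreDP mean, in log2 units, each mean over 3 arrays. All lines peak in PostDP, at 1.79 to 3.92, and then fan out to between 1.08 (Cldn10) and -2.87 (Dmwd) in M2.

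Probe sets for the same gene that had not been used to choose it gave the same outline in part. For 5 of the genes the array carried 8 other probe sets, all 8 of them highest in PostDP, and 4 met every number of the choice. Those were both others of Arap2, with PostDP means of 11.02 and 8.96 and margins of 2.31 and 1.99 over the next stage, and both others of Ikzf2, with PostDP means of 11.45 and 8.12 and margins of 2.30 and 2.64. They were hybridised with the same RNA, so they check the probe and not the sample. The other probe sets of Dmwd were dim and disagreed in the later stages: their M2 means of 5.80 and 5.89 lay close to their SM&M1 means of 5.75 and 6.02, and their Tak1-deficient means of 7.13 and 6.96 lay close to their PostDP means of 7.31 and 7.08. The single other probe set of Klhl4 had a PostDP mean of 7.71 and a margin of 1.61, and that of Tox2 had a PostDP mean of 6.00 and a margin of 0.96.

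**Figure D4:**
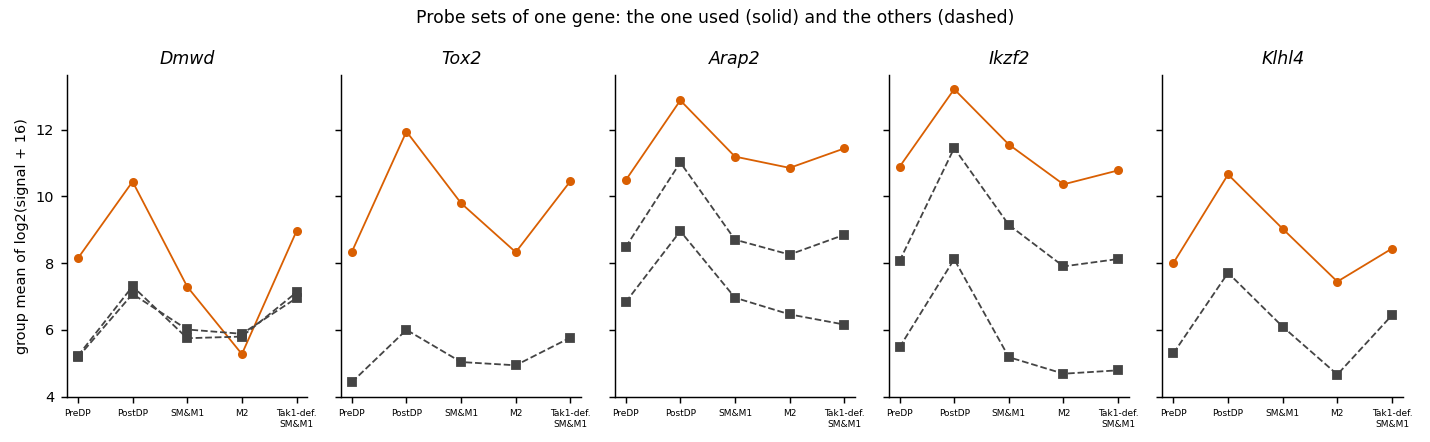
Group means of log2(signal + 16) are on the vertical axis and the 5 groups on the horizontal axis, for the probe set used (solid) and the others (dashed) of the 5 genes with several. All dashed lines peak in PostDP; the other probe sets of Dmwd lack the fall from SM&M1 to M2 that the one used shows.

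The genes nearest the limits were as follows. Just inside the margin of 1.5 were Cldn10 with 1.58, Chsy1 with 1.62 and Klhl4 with 1.63, and just outside it were Raph1 with 1.45, Cobll1 with 1.40 and Lmo4 with 1.38. The lowest PostDP means inside were 9.66 for Rapsn, 9.95 for Mpp4 and 10.17 for Cldn10. Shank3, Gem and Lox had margins of 1.80, 1.80 and 1.63 but PostDP means of 7.65, 7.65 and 7.49. The chemokine receptor gene Ccr4 and the MAP kinase phosphatase gene Dusp4 met the numbers and were left out by name: Ccr4 had means of 6.35, 9.42, 7.22 and 6.68 in PreDP, PostDP, SM&M1 and M2, and Dusp4 had 8.26, 9.84, 7.76 and 7.60.

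A list of 51 genes of the receptor response in positive selection, and the lists below, were drawn up with earlier results of these data known. Of the 50 measured genes of this list, 29 were at least 1.5 higher in PostDP than in PreDP, against 211 of 18193 over all genes. Of the 29, 4 were at least 1.5 lower again in SM&M1 and M2 (Tox2, Ikzf2, Ccr4 and Dusp4), against 14 of the 211 over all genes. These 4 are themselves among the 14, so the counts are a description. Another 7 of the 29 were as high in SM&M1 as in PostDP or higher, against 105 of the 211. Nr4a1, an early reporter of receptor signal strength, was 9.02, 13.31, 12.70 and 11.55 in PreDP, PostDP, SM&M1 and M2. Egr2, an early response factor, was 7.47, 12.29, 11.11 and 9.95. Both were above their PreDP means in SM&M1, as were 10 of the 12 genes. The 12 were chosen for a fall of at least 1.5 by SM&M1, and Nr4a and Egr symbols were left out by name. The smaller fall of Nr4a1 and Egr2 is therefore a description. Among 50 measured thymocyte transcription factors, 9 were at least 1.5 higher in PostDP, and 2 of these, again Tox2 and Ikzf2, were that much lower again later, beside the same 14 of 211 over all genes. None of the 12 genes was in the lists for calcium and NFAT, feedback inhibitors, adhesion, metabolism or apoptosis, where no gene showed both steps.

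The 3 comparisons between groups other than PostDP whose difference the choice did not use were tested with limma over the 11871 genes above the array median in at least 3 arrays, with a gene called at a Benjamini-Hochberg adjusted p under 0.05. All 12 chosen genes entered these tests; Mpp4 entered only through its PostDP arrays, so its differences elsewhere lie in the dim range. The SM&M1, M2 and PreDP arrays all took part in choosing the genes, since a low mean in each was asked for. M2 against SM&M1 and Tak1-deficient SM&M1 against SM&M1 share the SM&M1 arrays. M2 against SM&M1 and M2 against PreDP share the M2 arrays. Calls in comparisons that share arrays are not independent. The labels speak of biological replicates but name no animals, so each p-value speaks to sample-to-sample spread, part of which may be technical.

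From SM&M1 to M2, 5 of the 12 fell and none rose, against 1.38% of all genes tested called lower and 0.952% called higher. The median difference of the 12 was -1.24, and of all genes tested -0.005. The 5 were Dmwd, Basp1, Tox2, Ikzf2 and Chsy1. Every M2 array was below every SM&M1 array in each of them, and in 9 of the 12 genes in all. The share of all genes with such a gap was not counted, so it is a description. Dmwd fell by 2.02 ± 0.21 (SE; adjusted p = 0.000257), Basp1 fell by 1.29 ± 0.16 (adjusted p = 0.000824) and Ikzf2 fell by 1.19 ± 0.16 (adjusted p = 0.00134). Chsy1 fell by 1.75 ± 0.33 and Tox2 fell by 1.47 ± 0.28, both with an adjusted p of 0.0154. For Rapsn the difference was -1.35 ± 0.38 (adjusted p = 0.106) and for Klhl4 -1.58 ± 0.60 (adjusted p = 0.308). In a fit restricted to both groups and blocked on replicate number, which pairs them, both were called too (adjusted p = 0.0489 and 0.0272), making 7 of 12; Klhl4 was already called in the 2-group fit without the block (0.00571). Rab19 was at -0.18 (95% interval -0.66 to 0.30), Arap2 at -0.34 (-0.65 to -0.03), Trav6-3 at -0.43 and Cldn10 at 0.44, all uncalled. Mpp4, also uncalled, was below the array median in every array of both groups.

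Some of these calls rested on single arrays. Tox2 was uncalled without SM&M1 replicate 1 (adjusted p = 0.0681) and without M2 replicate 2 or 3 (0.0794 each). Chsy1 was uncalled without SM&M1 replicate 1 (0.0674) or 3 (0.0583) and without M2 replicate 2 (0.0837) or 3 (0.079). Rapsn was called without M2 replicate 3 (0.0185) and without Tak1-deficient replicate 2 (0.0489), and Klhl4 without the latter array (0.00111), which enters only the shared estimate of spread. In the 2-group fit without the block Tox2 was uncalled (0.0682), and with arrays centred on their medians Chsy1 was uncalled (0.059). With a gene's probe sets averaged, Dmwd was at -0.70 (adjusted p = 0.512), Tox2 at -0.78 (0.4) and Ikzf2 at -0.98 (0.0804), and Klhl4 was called at -1.51 (0.0416). Summed macrophage marker signal reached 1992 in SM&M1 replicate 1 and 2095 in M2 replicate 1, the highest of their groups. Without both arrays 5 of the 12 were called lower.

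In this comparison 9 of the 50 measured genes of the receptor-signal list were lower and none higher, with a median of -0.38. Besides Tox2 and Ikzf2 these were Nr4a1 (-1.15 ± 0.16, adjusted p = 0.00199), Nr4a3 (-1.29 ± 0.21, adjusted p = 0.00699), the corepressor gene Nab2, the inhibitory receptor gene Pdcd1, the costimulatory receptor gene Tnfrsf9, the pro-apoptotic Bcl2l11 and the chemokine receptor gene Ccr9. Neither Ccr4 (-0.53 ± 0.23, adjusted p = 0.425) nor Dusp4 (-0.16 ± 0.22, adjusted p = 0.996) was called.

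Measured from the start, M2 against PreDP, the 12 genes split; the mouse line differs here as well as the stage. In M2, 4 were lower than in PreDP, 2 were higher and 6 were uncalled, against 12.5% of all genes called lower and 14.6% called higher. Dmwd was lower by the widest margin, at -2.87 ± 0.21 (adjusted p = 2.91e-07), followed by Chsy1 at -1.59 ± 0.33 (0.00269), Basp1 at -0.73 ± 0.16 (0.00319) and Ikzf2 at -0.52 ± 0.16 (0.0236). Cldn10 was higher, at 1.08 ± 0.28 (0.0108), and so was Trav6-3, at 0.86 ± 0.28 (0.0369). Tox2 differed by -0.01 (95% interval -0.61 to 0.60) and Rapsn by -0.02 (-0.84 to 0.81), so their M2 level lay near that of PreDP within these intervals. The others were Mpp4 at -0.88, below the array median in both groups, Klhl4 at -0.56, Rab19 at 0.48 and Arap2 at 0.37.

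The calls on Dmwd, Chsy1 and Basp1 held without any 1 array, and the others did not. Trav6-3 was uncalled without PreDP replicate 2 (adjusted p = 0.141) or 3 (0.11) and without M2 replicate 1 (0.0657), 2 (0.0679) or 3 (0.126). Ikzf2 was uncalled without PreDP replicate 2 (0.115) or 3 (0.0523) and without M2 replicate 2 (0.0966) or 3 (0.0799), and Cldn10 without M2 replicate 3 (0.0569). Arap2 was called without PreDP replicate 3 (0.0435) or Tak1-deficient replicate 2 (0.0337). With each array centred on its median, the median difference of all genes went from 0.05 to -0.10, both rises were uncalled (Cldn10 0.93, adjusted p = 0.0668, and Trav6-3 0.71, adjusted p = 0.255), and Ikzf2 was too (0.0534). With its probe sets averaged Dmwd was at -0.53 (adjusted p = 0.293). In the receptor-signal list 26 of 50 genes were higher in M2 than in PreDP and 8 lower, with a median of 1.05. The 8 included Ikzf2 and Dusp4 (-0.66 ± 0.22, adjusted p = 0.0382).

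Loss of TAK1 was compared at the SM&M1 stage. Of the 12 genes, Dmwd was higher and Ikzf2 lower in Tak1-deficient SM&M1 than in SM&M1, and 10 were uncalled, against 0.430% of all genes tested called higher and 1.26% called lower. Dmwd differed by 1.66 ± 0.21 (SE; adjusted p = 0.00154), with all 3 Tak1-deficient arrays above all SM&M1 arrays. Ikzf2 differed by -0.78 ± 0.16 (adjusted p = 0.0255), with all 3 below. All 3 were above in 5 of the 12 genes and below in 1. The share of all genes with such a gap was not counted, so it is a description. The Tak1-deficient mean lay between the SM&M1 and PostDP means in 10 of the 12 genes, Ikzf2 and Klhl4 being the exceptions. The choice of genes asks for a low SM&M1 mean, which pushes this difference upward. That count, the higher call of Dmwd beside the share of all genes, and the median and intervals given next are therefore descriptions. The median difference was 0.44 for the 12 and 0.06 for all genes tested. Basp1, at 0.63 (95% interval 0.29 to 0.97, adjusted p = 0.0671), Tox2, at 0.66 (0.06 to 1.26, 0.246), and Rab19, at 0.54 (0.06 to 1.03, 0.236), had intervals above 0 and no call. Klhl4 was at -0.59 ± 0.60 and turned to 0.43 without Tak1-deficient replicate 2, so its direction rests on that array. Mpp4 was below the array median in both groups, and the other uncalled genes lay between 0.19 in Chsy1 and 0.54 in Rapsn.

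These 2 calls depended on the arrays in the fit. In a fit of the 2 groups alone neither was called (Dmwd adjusted p = 0.0882, Ikzf2 0.328), and with Tak1-deficient replicate 2 left out of that fit Dmwd was called (0.0195) and Ikzf2 was not (0.0838). Ikzf2 was also uncalled without any 1 SM&M1 array (replicate 1, 2 or 3: 0.0623, 0.11 and 0.0872) and without Tak1-deficient replicate 1 (0.0692), and with arrays centred on their medians (-0.92, adjusted p = 0.0891). That centring moved the median difference of all genes from 0.06 to -0.09 and the share of calls that were higher from 25.4% to 13.4%. With probe sets averaged, Dmwd was at 1.33 (adjusted p = 0.0753) and Ikzf2 at -0.73 (0.196). Basp1 was called at the stricter filter on low signal (0.0332) and with the trend and robust options of limma (0.044).

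Markers of earlier cells, mature CD4 cells, regulatory T cells and other cells differed between the groups to unequal degrees. The summed signal of 9 double-positive marker genes was 93643 to 130170 in PreDP, 28537 to 40462 in PostDP, 10172 to 15215 in SM&M1, 10508 to 18839 in the Tak1-deficient arrays and 9163 to 12415 in M2. Mean Cd8a was 7.79 with TAK1 and 9.63 without it at the SM&M1 stage, without overlap. In the limma test it was uncalled (1.84 ± 0.43, adjusted p = 0.051), and so was Cd8b1 (0.73 ± 0.18, adjusted p = 0.0592). Rag1 read 10.55, 6.93 and 7.68 in SM&M1 and 9.83, 8.85 and 11.20 in the Tak1-deficient arrays, so it overlapped through SM&M1 replicate 1, and M2 replicate 1 was likewise high at 10.41 against 8.05 and 7.19. For 7 mature CD4 markers the median difference from PreDP was 2.8 to 3.4 in SM&M1 and 2.0 to 2.5 in the Tak1-deficient arrays, and for the 6 regulatory T cell markers other than Ikzf2 it was 1.7 to 2.1 and 0.8 to 1.2. By summed signal both lists overlapped between these groups. The mature CD4 sum was 39580 to 55516 in SM&M1 and 33454 to 69780 in the Tak1-deficient arrays, with Tak1-deficient replicate 2 highest. Summed macrophage marker signal was 689 to 1992 in SM&M1 and 958 to 3659 in the Tak1-deficient arrays, where of the 13 markers C1qc and Cd163 were not above the median in any array. The dendritic cell sum was 2846 to 6468 and 2817 to 6824, and that of NKT, NK and innate-like T cells 1155 to 4664 and 1493 to 4570. The thymic epithelium sum was 466 to 745 in SM&M1 and reached 1943 in Tak1-deficient replicate 2, against 588 and 480 in the other Tak1-deficient arrays. Without SM&M1 replicate 1 and M2 replicate 1, high in both macrophage markers and Rag1, Dmwd was at 1.62 (adjusted p = 0.0163) and Ikzf2 at -0.83 (0.0633). Tak1-deficient replicates 2 and 3, with higher macrophage sums (3659 and 2457), stayed in that fit. The part of double-positive, less mature or other cells in these differences was not tested.

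In the receptor-signal list 4 of 50 genes were lower in Tak1-deficient SM&M1 and none higher, with a median of 0.11. Besides Ikzf2 these were the AP-1 gene Jun (-3.84 ± 0.79, adjusted p = 0.028), the NF-κB subunit gene Relb (-1.27 ± 0.29, adjusted p = 0.045) and Rgs1, a regulator of G protein signals (-1.89 ± 0.40, adjusted p = 0.0321). Ccr4 was at 0.57 ± 0.23 (adjusted p = 0.23) and Dusp4 at 0.34 ± 0.22 (adjusted p = 0.423), both uncalled.

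**Figure D5:**
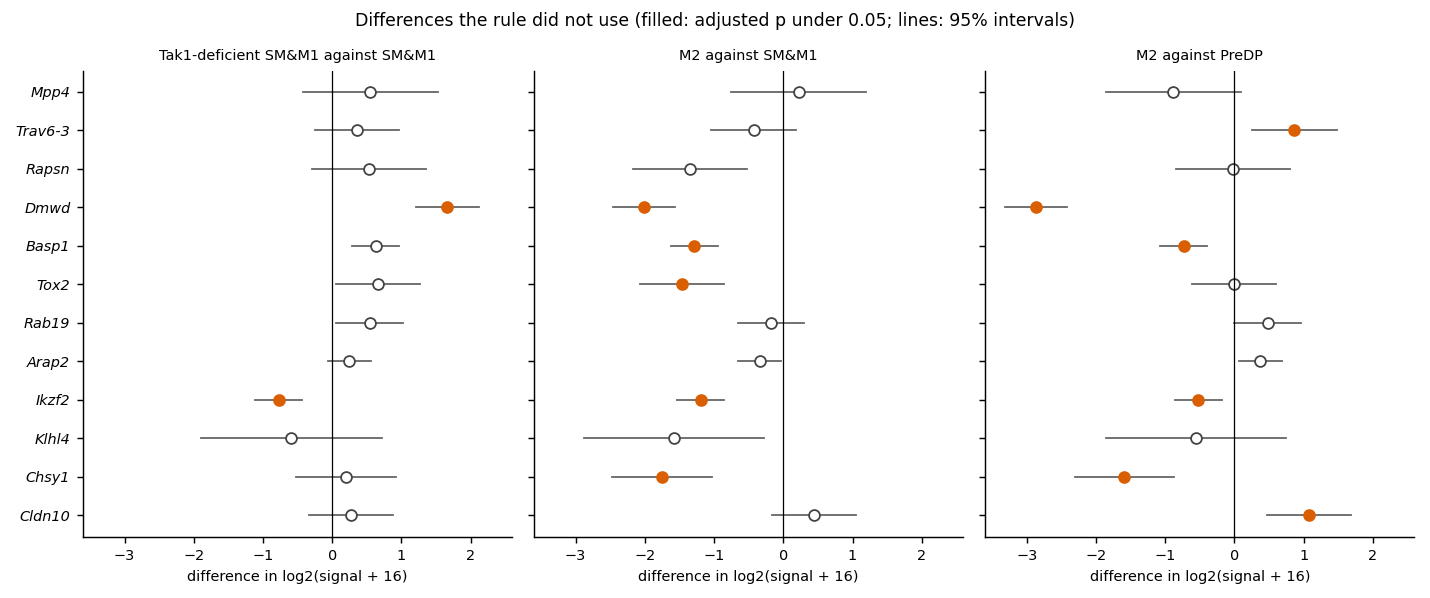
Differences in log2(signal + 16) between group means (points) with 95% intervals (lines) for the 12 genes in the 3 comparisons tested, filled where the limma adjusted p was under 0.05. Filled points number 2 in the left panel (loss of TAK1), 5 in the middle and 6 on the right, and Dmwd and Ikzf2 are filled in all 3.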

How the data were processed

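RNA was labelled after 1 round of amplification, per the labels' protocols, and the deposited values are linear signal intensity for 45101 probe sets in 15 arrays. How the authors computed and scaled these intensity values is not given in the sources used here; in the files the mean of each array, with 2% of probe sets trimmed at each end, is 500.

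Values were taken as log2(intensity + 16), without further normalization, so a fold change understates the change of dim genes. The platform annotation gave 34945 probe sets 1 gene each, 932 several and 9160 none, and 64 were controls; 34741 of the first received a current symbol through RefSeq. Tests used limma 3.58.1 in R 4.3.3 on all 15 arrays, with 1 mean per group, 1 shared estimate of spread and Benjamini-Hochberg adjustment over the 11871 genes tested; they were tested on simulated data first. Errors given with ± are SDs over 3 arrays for group means and standard errors of the fit for differences, and precision is limited by the 3 arrays in each group. Every chosen gene is given in each array; lists of other genes are given by counts, with values for members that were called, genes on the limits of the rule and relatives.

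The 12 genes, the gene lists and the comparisons were chosen with earlier results of these data known. Replicate numbers are those in the labels, with no meaning stated there. Same-numbered M2 and SM&M1 samples deviated together from their group means (correlations of 0.553, 0.436 and 0.326), and these groups were treated as paired by number in the blocked fit. Alternatives changed the arrays in the fit, the replicate block, the filter on dim genes, the normalization, the probe sets, the pseudocount, the spread model and the limits of the choice. A pair of them was added after seeing the data. The first left out SM&M1 replicate 1 and M2 replicate 1, each the highest of its group in macrophage markers. The other left the outlying Tak1-deficient array out of the 2-group fit.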

Additional observations from a re-analysis of the deposited data

Results flagged for a closer look

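Probe sets without a gene name were not part of the choice of genes, and 8 of the 9160 met the same numbers, with a PostDP mean of at least 8 and a margin of at least 1.5 over PreDP, SM&M1 and M2. No probe set with several genes among 932 did. The widest margin among the 8 was 1.91, with a PostDP mean of 11.51, against means of 9.60, 9.26 and 9.15 in PreDP, SM&M1 and M2. The brightest had a PostDP mean of 11.64 and a margin of 1.74, and a mean of 10.67 in Tak1-deficient SM&M1 against 9.91 in SM&M1.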

How the results depend on the processing

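The choice gave the same 12 genes under quantile normalization, median centring, averaged probe sets, a pseudocount of 1 and a rule on single arrays. A margin of 1 gave 40 genes and a margin of 2 gave 6. Leaving out 1 array gave 11 to 15 genes; the 11 lacked Cldn10. For loss of TAK1, 201 genes were called in all. The count was 5 in a fit of the 2 groups alone and 0 in the 2-group fit with a replicate block. It was 114 with no filter and 97 with centred arrays. Without both SM&M1 replicate 1 and M2 replicate 1 it was 98. Tak1-deficient replicates 2 and 3, with higher macrophage marker sums (3659 and 2457), stayed in that fit. Without 1 array it was 65 (without SM&M1 replicate 3) to 357 (without Tak1-deficient replicate 2). Of the 12 genes, 2 were called. This became 0 in the 2-group fit, without or with the replicate block, and with averaged probe sets. It became 1 with no filter, with centred arrays and without both SM&M1 replicate 1 and M2 replicate 1. It was also 1 in the 2-group fit without Tak1-deficient replicate 2, and 1 to 2 without 1 array. For M2 against SM&M1, 277 genes were called. The count was 428 in the 2-group fit, 594 in the 2-group fit with the replicate block and 132 with centred arrays. Without both SM&M1 replicate 1 and M2 replicate 1 it was 107. Without 1 array it was 86 (without SM&M1 replicate 3) to 678 (without Tak1-deficient replicate 2). Of the 12, 5 became 3 with averaged probe sets and 3 to 7 without 1 array (3 without SM&M1 replicate 1 or M2 replicate 2, 7 without Tak1-deficient replicate 2). For M2 against PreDP, 6 of the 12 became 3 with centred arrays and 3 (without M2 replicate 3) to 7 (without Tak1-deficient replicate 2) without 1 array. The cause of these changes was not tested. No called difference of the 12 changed sign in any setting; of 23 uncalled ones, 7 did in at least 1. Same-numbered samples correlated at -0.174, -0.192 and -0.244 for loss of TAK1 and at 0.035, 0.150 and 0.006 for M2 against PreDP, so the replicate block is not a pairing there. Mpp4 outside PostDP and Dmwd in M2 were not above the array median, so their differences there are limited by dim signal.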
